A study of Homo sapiens with 15 samples.

Results

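The genes described here encode the enzymes that make sterols and fatty acids, with the regulators of that synthesis, in atrial cardiomyocytes made from human embryonic stem cells. They were the rows of the deposited gene count table whose symbol stood in a list of 32, and all 32 were found among 58780 gene rows. The list holds 18 sterol enzymes, 10 fatty acid enzymes and 4 genes of regulation and transport. All 32 passed the filter on low counts and were tested beside 24659 genes in all.

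RNA was sequenced from wild-type H7-ESC cells, 1 established human embryonic stem cell line, that had been turned into atrial cardiomyocytes and dissociated as spheroids at day 17. The 15 libraries fell into 5 groups of 3: scramble siRNA, siRNA-1 and siRNA-2 against ATRNL1, control lentivirus, and lentivirus carrying the short isoform of ATRNL1. ATRNL1 codes for a transmembrane relative of attractin. The cells given lentivirus were selected with puromycin. The labels do not say what the control lentivirus carries, and nothing in them ties the libraries to separate cultures. The labels' protocol describes removal of ribosomal RNA, while their molecule field names polyA RNA, so the kind of library is uncertain. The series asks what changes in these cells when ATRNL1 is lowered or raised.

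Cells build cholesterol from acetyl-CoA through mevalonate, isoprenoids, squalene and a chain of sterol intermediates, and they build fatty acids from the same acetyl-CoA. Both branches are switched on by the SREBP transcription factors, which are encoded by SREBF1 and SREBF2 and are held in the endoplasmic reticulum by INSIG proteins when sterols are plentiful. SREBF2 is known mostly for the sterol branch and SREBF1 mostly for the fatty acid branch. In heart muscle the products go into membranes, and the muscle burns far more fatty acid than it makes.

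ATRNL1 itself stood at 16.8, 13.8 and 15.3 CPM (counts scaled to library size, with TMM factors that adjust for library composition) with scramble, 10.2, 9.02 and 8.25 with siRNA-1, and 4.93, 5.41 and 4.61 with siRNA-2. Its level was 29.2, 27.5 and 27.1 in the control lentivirus cells and 636, 927 and 727 after the ATRNL1 lentivirus, so every group lay on the side its label names. Total counts ran from 37078568 to 108663135 per library. The cardiomyocyte marker TNNT2 lay between 2528 and 3904 CPM and the atrial light chain MYL7 between 1676 and 2637, while the ventricular light chain MYL2 reached 1069 to 4233. Of the transcription factors on the atrial list, NR2F2 lay between 42.0 and 74.1 CPM and TBX5 between 151 and 209, and NR2F1 did not pass 0.98. The adipocyte gene ADIPOQ reached at most 0.0304 CPM, and AFP, a liver and endoderm gene that marks another tissue rich in this synthesis, belonged to a list of 7 whose summed level was 19.1 to 28.5 CPM. In each group 1 library lay between the other 2 in more genes than either of them did, from 40.4% of 7258 genes above 20 CPM in siRNA-2 to 74.4% in scramble. In 4 of the 5 groups, all but scramble, the title of 1 sample joins the numbers of the other 2. Whether it is a pool of them is not given, and the columns do not show which library it is. Were it a pool, those groups would hold 2 independent libraries and not 3, and the p-values here would be too small. No scramble title joins numbers, but scramble library 3, the intermediate one, held 107062380 counts, beside 44584366 and 56884016 in libraries 1 and 2. Whether it too is a pool was not tested, and the same limit would then hold for the control of both siRNAs. Counts without the intermediate library stand beside the results.

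The promoters of the members were searched for short motifs, which the choice of members did not use. RefSeq promoter windows on GRCh38.p14, searched on both strands over the 250 bases before each start, were at hand for 28 of the 32 members, in 40 windows. The CCAAT box, bound by NF-Y, a usual partner of SREBP, was in at least 1 window of 13 of 15 sterol enzymes (86.7%), 4 of 9 fatty acid enzymes (44.4%) and 3 of 4 regulation and transport genes, beside 37.0% of 27305 genes. The GC box GGGCGG was in 27 of 28 members (96.4%) beside 46.2% of all genes, and the E-box CACGTG in 2 of 28 (7.14%) beside 7.73%. The strict sterol response element TCACNCCAC was in 1 of 28 members, SREBF2, beside 1.09% of all genes. No motif is contained in another, and the 27305 genes were not matched to the members for the GC content of their promoters. A match is not a bound site, and a window without a match says nothing of the factor.

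Windows are shown for 3 of the 10 members that fell with both siRNAs and rose with the ATRNL1 lentivirus. Each ends where the first exon annotated in GENCODE 29 begins. These 3 hold a CCAAT box, while SREBF1, another of the 10, has none in its window, so the choice does not tie the box to the response. CCAAT boxes on either strand are in capitals (ATTGG is the box read on the other strand). MSMO1 is shown at chr4:165327419-165327622 and NSDHL at chrX:152830813-152830966, both on the plus strand of GRCh38. INSIG1 is shown at chr7:155297628-155297775, plus strand. For SREBF2 only the sterol response element and 10 bases on either side are shown, at chr22:41832962-41832990, plus strand, with the element in capitals.
MSMO1: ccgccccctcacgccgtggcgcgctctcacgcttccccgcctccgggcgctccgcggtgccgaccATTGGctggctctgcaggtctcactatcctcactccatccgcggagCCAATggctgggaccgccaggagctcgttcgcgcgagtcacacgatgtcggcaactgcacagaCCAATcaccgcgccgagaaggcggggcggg
NSDHL: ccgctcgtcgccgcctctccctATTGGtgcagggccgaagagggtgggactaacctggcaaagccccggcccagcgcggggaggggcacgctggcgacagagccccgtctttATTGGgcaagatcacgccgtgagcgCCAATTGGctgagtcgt
INSIG1: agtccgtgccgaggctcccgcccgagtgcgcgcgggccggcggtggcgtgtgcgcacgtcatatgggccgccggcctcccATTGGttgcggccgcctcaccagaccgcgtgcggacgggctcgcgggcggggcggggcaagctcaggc
SREBF2: tgacgcgccaTCACCCCACgcaccgcttc
In MSMO1 the boxes in capitals begin 185, 139 and 76 bases before the RefSeq start, and in NSDHL they begin at 228, 138, 113 and 110, the last 2 overlapping as a palindrome. The INSIG1 box begins 170 bases before the start, and the SREBF2 element 133 bases before it.

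Levels of different genes were compared as CPM per kilobase of merged exon. In the scramble cells SCD, the desaturase that makes oleate from stearate, stood highest at 264 ± 59.6 CPM per kilobase (SD, n = 3), and its lowest library at 203 lay above every other member. STARD4, a carrier of cholesterol between membranes, followed at 59.2 ± 3.82, and HMGCS1, the synthase that makes HMG-CoA, at 45.4 ± 1.18. MSMO1 at 32.8 ± 0.582, FADS1 at 31.3 ± 4.25 and SREBF2 at 30.8 ± 1.84 overlapped between libraries. INSIG1, overlapping SREBF2, came next at 28.2 ± 1.20, and its neighbour below, FDFT1, at 22.4 ± 0.739, did not overlap it. At the bottom were MVK at 2.96 ± 0.328, HSD17B7 at 1.71 ± 0.211 and CYP51A1 at 0.370 ± 0.0320. CYP51A1, the lanosterol demethylase, shares 79.4% of its exon bases with a same-strand gene model, AC000120.2, so its level here is uncertain.

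**Figure D1:**
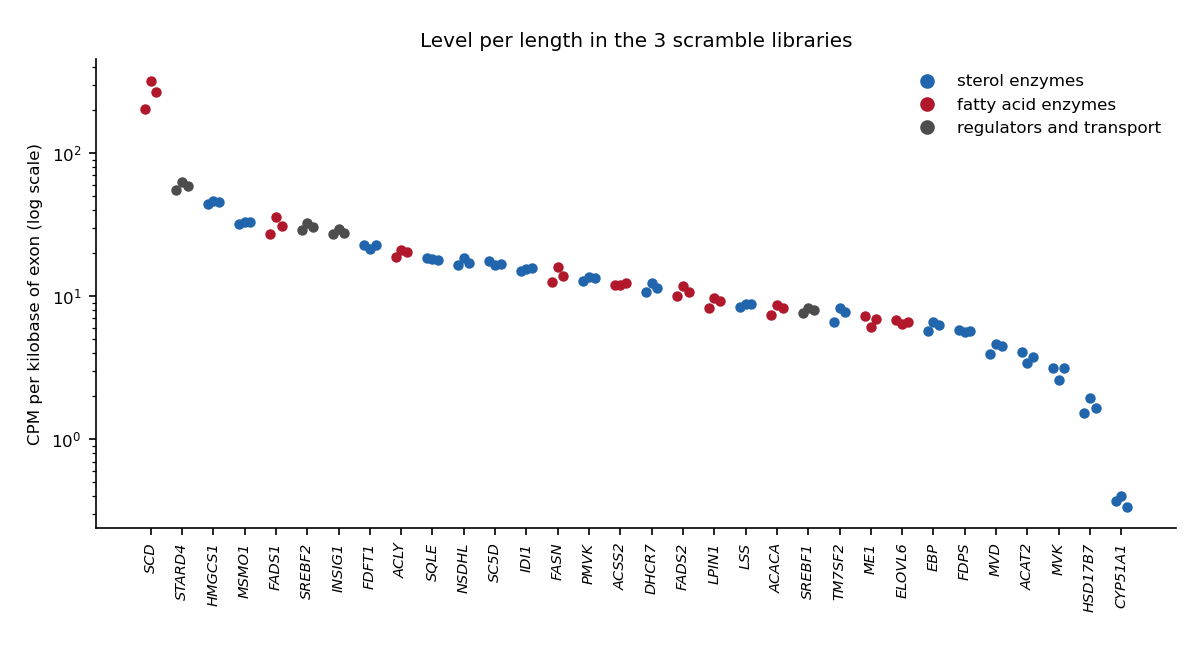
Level of each member in the 3 scramble libraries (points), in CPM per kilobase of exon on a log scale, ordered by the mean. SCD lies apart at 203 to 322, and CYP51A1 is lowest at 0.338 to 0.401.

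With siRNA-1 both branches were lower than with scramble: 13 of 18 sterol enzymes, 7 of 10 fatty acid enzymes and 3 of 4 regulation and transport genes fell, and no member rose. A gene counts as lower or higher where edgeR's quasi-likelihood test gave an adjusted p under 0.05 over all genes. Over all genes tested, 3.76% were called lower and 5.85% higher. The median log2 fold change was -0.43 for the sterol enzymes and -0.35 for the fatty acid enzymes, beside -0.01 over all genes. With siRNA-2 the same comparison gave 9 of 18 sterol enzymes, 5 of 10 fatty acid enzymes and 3 of 4 regulation and transport genes lower, and 1 sterol enzyme higher. Over all genes, 8.48% were called lower and 9.64% higher, and the medians were -0.25 for sterol enzymes and -0.23 for fatty acid enzymes. At library sizes without TMM factors siRNA-2 gave 1486 genes lower and 3491 higher in all, beside 2092 and 2378 with them. Both siRNAs were set against the same 3 scramble libraries.

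**Figure D2:**
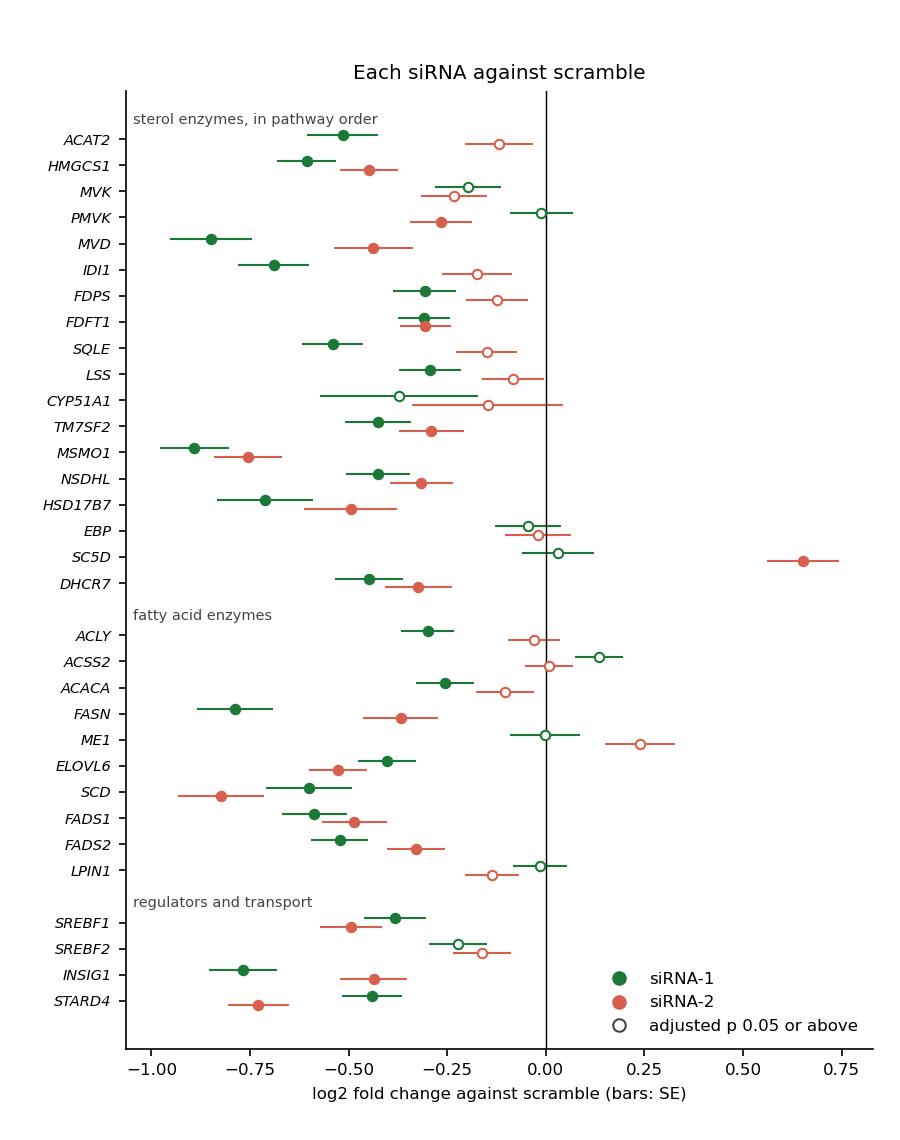
log2 fold change (points) with its SE (bars) of each member with siRNA-1 and siRNA-2 against scramble, with sterol enzymes in pathway order from the top. Filled points passed an adjusted p of 0.05: SC5D with siRNA-2 is the filled point above 0, and MSMO1 lies lowest with siRNA-1.

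The scramble libraries were unlike each other in endoplasmic reticulum stress genes. The summed level of 20 such genes was 3437 to 7696 CPM with scramble, 2363 to 2683 with siRNA-1 and 2291 to 2464 with siRNA-2, and 19 and 18 of the 20 were called lower with siRNA-1 and siRNA-2. HSPA5, the chaperone BiP, stood at 905, 2193 and 1583 in the scramble libraries. Fibroblast markers, 6 genes, summed to 89.8 to 135 CPM with scramble, 152 to 165 with siRNA-1 and 131 to 140 with siRNA-2. With siRNA-1 the sum lay above scramble, and DCN alone stayed within the scramble range. With siRNA-2 the sum overlapped scramble. There COL1A1, COL1A2 and DCN stayed within the scramble range, while PDGFRA, POSTN and LUM lay above it. Ventricular markers, 3 genes, summed to 1228 to 1383 CPM with scramble, 1449 to 2010 with siRNA-1 and 2067 to 2100 with siRNA-2. The 3 smooth muscle markers summed to 236 to 330 CPM with scramble, 301 to 445 with siRNA-1 and 402 to 464 with siRNA-2. With siRNA-2 this rise lay in CNN1, while ACTA2 and MYH11 stayed within the range of the scramble libraries. The ventricular sum is mostly MYL2, and with siRNA-1 the other markers, IRX4 and HEY2, stayed within the scramble range. The part of any of these in the lower sterol and fatty acid genes was not tested. Scramble library 1 was the lowest in HSPA5. Set against it alone, 16 of 18 sterol enzymes had a negative log2 fold change with siRNA-1 (median -0.35), and 8 of 10 fatty acid enzymes (median -0.21). With siRNA-2 the same setting gave 16 of 18 (median -0.22) and 6 of 10 (median -0.11). Calls in this setting rest on 1 control library, and over all genes too fewer passed than in the full fit. Without the intermediate library of every group, 6 sterol and 3 fatty acid enzymes were lower with siRNA-1, and 2 and 4 with siRNA-2. Over all genes that gave 133 lower with siRNA-1 and 546 with siRNA-2, beside 927 and 2092 with all libraries. In bulk RNA, fewer cells of a type and less RNA per cell cannot be told apart.

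At the head of the sterol pathway, HMGCS1 stood at 208, 219 and 214 CPM with scramble, 148, 137 and 136 with siRNA-1, and 158, 153 and 159 with siRNA-2. Every siRNA library lay below every scramble library, and the log2 fold changes were -0.61 (SE 0.07, edgeR adjusted p 5.1e-06) and -0.45 (SE 0.07, adjusted p 7.6e-05). ACAT2, the cytosolic thiolase before it, was called lower with siRNA-1 at -0.51 and stood at -0.12 with siRNA-2 (adjusted p 0.41). It shares 26.5% of its exon bases with SOD2 and 9.23% with TCP1, both on the opposite strand. Over all libraries SOD2 stood at 262 to 472 CPM and TCP1 at 161 to 235, beside 11.1 to 21.8 for ACAT2. The use of strand in counting is not given, so the level of ACAT2 is uncertain in every comparison. Of the mevalonate kinases, MVK passed with neither siRNA (-0.20 and -0.23), though 3 of 17 alternatives called it with siRNA-2, and PMVK passed with siRNA-2 alone at -0.27, beside -0.01 with siRNA-1. MVD, the decarboxylase that makes isopentenyl diphosphate, stood at 18.5, 21.9 and 21.1 CPM with scramble, 11.8, 11 and 11.5 with siRNA-1, and 13.7, 15.7 and 16.1 with siRNA-2. It fell with both, by 0.85 (adjusted p 5.0e-06) and 0.44 (adjusted p 0.0026) on the log2 scale.

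In the isoprenoid and squalene steps every enzyme from IDI1 to LSS was called lower with siRNA-1, and FDFT1 alone with siRNA-2. IDI1, the isomerase of isopentenyl diphosphate, stood at 65.5, 67.8 and 69.1 CPM with scramble, 44.5, 40.6 and 40.4 with siRNA-1, and 58.2, 58.9 and 62.3 with siRNA-2. The 3 groups did not overlap, and IDI1 fell by 0.69 with siRNA-1 (adjusted p 1.0e-05) and stood at -0.17 with siRNA-2 (adjusted p 0.19). FDPS, which makes farnesyl diphosphate, was called lower with siRNA-1 at -0.31 and not with siRNA-2 at -0.12. FDFT1, the squalene synthase, was lower with both at -0.31. SQLE, the epoxidase that acts on squalene, stood at 80.1, 78.8 and 77.3 CPM with scramble, 55.7, 52.3 and 54.4 with siRNA-1, and 72.5, 69.2 and 71.2 with siRNA-2. It was called with siRNA-1 at -0.54 and not with siRNA-2 at -0.15, and LSS, the lanosterol synthase, likewise at -0.29 and -0.08. With siRNA-1 FDPS kept its call in 10 of 17 alternatives and LSS in 8.

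Among the late sterol steps MSMO1, the oxidase that removes methyl groups at C4, changed most. It stood at 93.0, 96.0 and 95.7 CPM with scramble, 52.7, 50.3 and 50.6 with siRNA-1, and 58.0, 54.2 and 56.5 with siRNA-2. No siRNA library came near the scramble libraries, and the log2 fold changes were -0.89 (SE 0.09, edgeR adjusted p 2.3e-07) and -0.76 (SE 0.09, adjusted p 5.6e-07). Against scramble libraries 1, 2 and 3 taken singly, MSMO1 stood at -0.86, -0.90 and -0.89 with siRNA-1. Its partners in C4 demethylation, NSDHL and HSD17B7, were lower with both siRNAs, NSDHL at -0.43 and -0.32 and HSD17B7 at -0.71 and -0.50. TM7SF2, a sterol C14 reductase, was at -0.43 and -0.29, and DHCR7, which makes cholesterol from its last precursor in 1 arm of the pathway, at -0.45 and -0.32, all called. Against scramble library 1 alone NSDHL, HSD17B7, TM7SF2 and DHCR7 lost these calls with both siRNAs. NSDHL then stood at -0.36 and -0.26, HSD17B7 at -0.55 and -0.34, TM7SF2 at -0.24 and -0.11, and DHCR7 at -0.34 and -0.22. TM7SF2 with siRNA-2 kept its call in 10 of 17 alternatives. EBP, the sterol isomerase, passed with neither (-0.05 and -0.02). Nor did CYP51A1, the step after LSS, whose level ran from only 0.257 to 1.44 CPM over the libraries.

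SC5D, the desaturase that acts between EBP and DHCR7, was the exception. It stood at 98.9, 92.9 and 93.7 CPM with scramble, 103, 96.5 and 92.2 with siRNA-1, and 151, 146 and 152 with siRNA-2. The siRNA-2 libraries lay above all others of the siRNA arm, while siRNA-1 and scramble overlapped. SC5D rose by 0.65 (SE 0.09) on the log2 scale with siRNA-2 (edgeR adjusted p 9.5e-06) and stood at 0.03 with siRNA-1 (adjusted p 0.91).

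In the fatty acid branch the desaturases and ELOVL6 fell with both siRNAs. SCD stood at 1088, 1727 and 1434 CPM with scramble, 906, 936 and 962 with siRNA-1, and 763, 798 and 840 with siRNA-2. All siRNA libraries lay below scramble, but the scramble libraries themselves spread widely. The log2 fold changes of SCD were -0.60 (SE 0.11, adjusted p 0.00054) and -0.82 (SE 0.11, adjusted p 4.9e-06). Against scramble library 1 alone SCD stood at -0.22 with siRNA-1 (adjusted p 0.44), which ended that call, and at -0.46 with siRNA-2 (adjusted p 0.0057).

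FADS1 and FADS2, the desaturases of polyunsaturated fatty acids, were at -0.59 and -0.52 with siRNA-1 and -0.49 and -0.33 with siRNA-2. Against scramble library 1 alone they stood at -0.29 and -0.23 with siRNA-2, which ended those calls. These neighbouring genes share exon bases on opposite strands, and the use of strand in counting is not given in the sources used here. ELOVL6, which lengthens palmitate, stood at 49.5, 46.9 and 48.1 CPM with scramble, 34.6, 38.4 and 36.3 with siRNA-1, and 34.9, 32.3 and 32.9 with siRNA-2. It was lower with both at -0.40 (adjusted p 0.00059) and -0.53 (adjusted p 8.7e-06), and unlike SCD its scramble libraries lay close together. FASN, the fatty acid synthase, stood at 119, 150 and 129 CPM with scramble, 70.6, 76.5 and 83.8 with siRNA-1, and 102, 110 and 96.4 with siRNA-2, and it was lower at -0.79 and -0.37. Against scramble library 1 alone FASN stood at -0.22 with siRNA-2 (adjusted p 0.36), which ended that call. ACLY, which splits citrate into acetyl-CoA, and ACACA, the carboxylase that makes malonyl-CoA, were called with siRNA-1 (-0.30 and -0.26) and not with siRNA-2 (-0.03 and -0.10). ACSS2, ME1 and LPIN1, which make acetyl-CoA from acetate, NADPH from malate and diacylglycerol from phosphatidate, passed with neither siRNA. ME1 was called higher with siRNA-2 in 6 of 17 alternatives, at 0.27 after the correction for GC content described below, and ACSS2 with siRNA-1 in 1, that correction, at 0.14.

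Of the regulators, INSIG1, itself a known SREBP target, stood at 98.9, 108 and 102 CPM with scramble, 59.8, 60.2 and 61.1 with siRNA-1, and 75.3, 75.7 and 76.9 with siRNA-2. The 3 groups were separate, and INSIG1 was lower at -0.77 (SE 0.09, edgeR adjusted p 1.4e-06) and -0.44 (SE 0.08, adjusted p 0.00052). SREBF1 was at -0.38 and -0.49, both called. SREBF2 did not pass, at -0.22 with siRNA-1 (adjusted p 0.054) and -0.16 with siRNA-2 (adjusted p 0.13). Of 17 alternatives, 6 called SREBF2 lower with siRNA-1, at -0.25 to -0.21, among them limma-voom and the GC correction, and 1, the GC correction, with siRNA-2 at -0.19. STARD4 stood at 314, 358 and 339 CPM with scramble, 239, 242 and 263 with siRNA-1, and 202, 200 and 208 with siRNA-2, and it was lower at -0.44 and -0.73. Against scramble library 1 alone neither SREBF1 (-0.32, adjusted p 0.16) nor STARD4 (-0.34, adjusted p 0.097) passed with siRNA-1, while INSIG1 did (-0.71, adjusted p 0.00040).

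The siRNAs were then compared with each other, which leaves the scramble libraries out of the difference. In that comparison 5 sterol enzymes were lower with siRNA-1 than with siRNA-2 (IDI1, MVD, ACAT2, SQLE and SC5D) and 1, PMVK, was higher. FASN and ACLY were lower in the fatty acid branch, and INSIG1 was lower and STARD4 higher among the regulation and transport genes. Over all genes 4.53% were called lower and 5.6% higher. SC5D differed most at -0.62 (SE 0.09, edgeR adjusted p 4.4e-05), followed by IDI1 at -0.52 (SE 0.09, adjusted p 0.00030). MSMO1 at -0.14 (adjusted p 0.40), HMGCS1 at -0.16 (adjusted p 0.21) and SCD at 0.22 (adjusted p 0.23) did not pass. Without the intermediate library of every group, 1 sterol enzyme and 0 fatty acid enzymes were lower, beside 193 genes lower in all. At library sizes without TMM factors 8 and 5 were lower. Over all genes that scaling gave 2055 lower and 1045 higher, beside 1117 and 1382 with TMM factors.

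**Figure D3:**
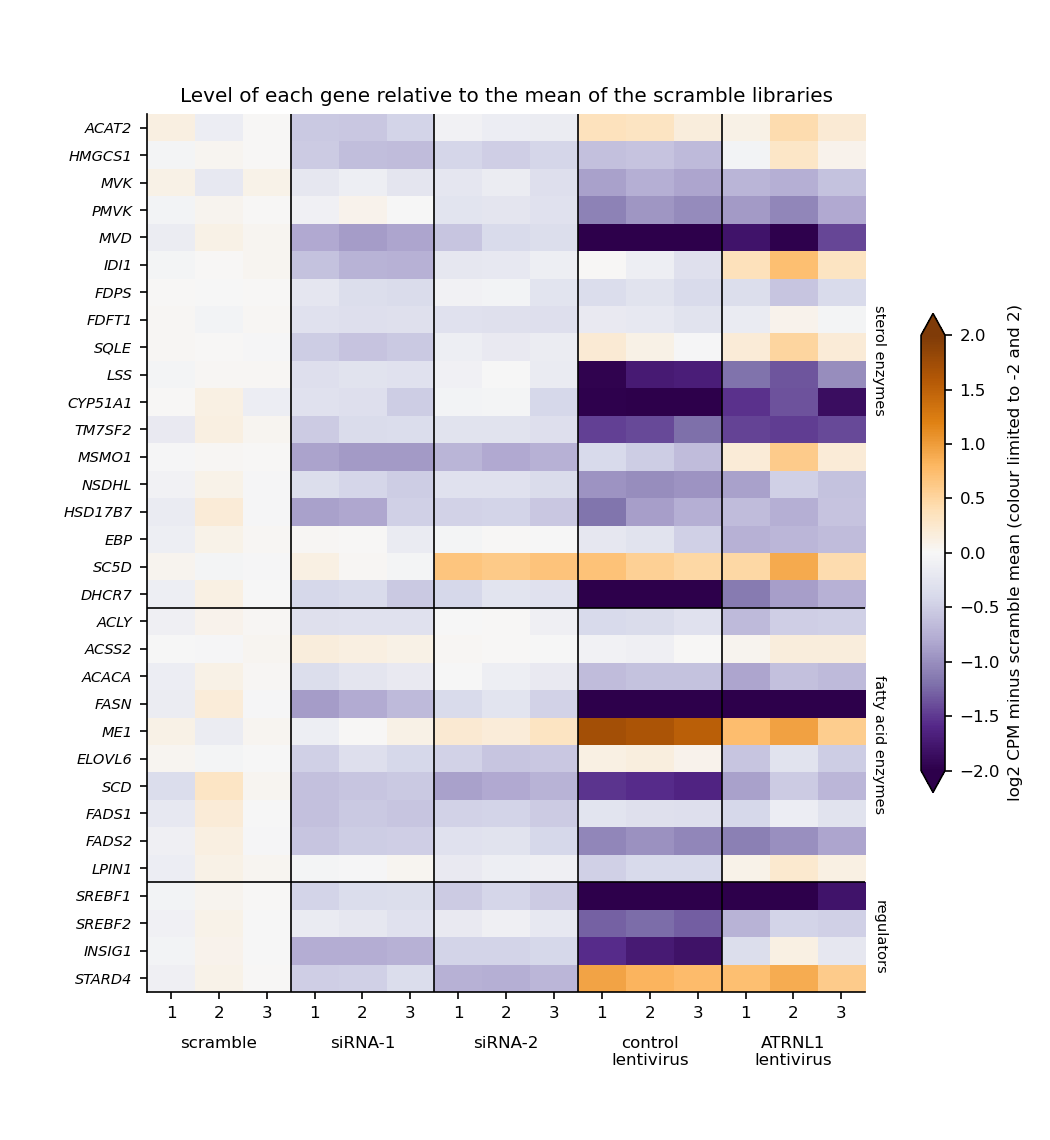
log2 CPM of each member in each of the 15 libraries minus its mean over the 3 scramble libraries, with sterol enzymes in pathway order at the top and colour limited to -2 and 2. The siRNA columns are mostly lower than scramble, and MVD, LSS, CYP51A1, DHCR7, FASN and SREBF1 are darkest with the control lentivirus.

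With the ATRNL1 lentivirus, set against the control lentivirus, 9 of 18 sterol enzymes rose, 1 fell and the other 8 did not pass. Of 10 fatty acid enzymes 4 rose and 3 fell, and of the 4 regulation and transport genes 3 rose. Over all genes 19.1% were called higher and 18% lower. The median log2 fold change was 0.24 for the sterol enzymes, 0.04 for the fatty acid enzymes and 0.00 over all genes. Stress genes rose here too, 13 of 20, with a summed level of 2544 to 2588 CPM with the control lentivirus and 3136 to 4282 with the ATRNL1 lentivirus. The 3 ventricular markers summed to 1865 to 2404 CPM in the controls and 3678 to 4376 with ATRNL1. The summed level of 6 atrial markers, mostly MYL7, went from 2884 to 3009 CPM in the controls down to 2302 to 2426. MYL7 and TBX5 lay below every control library, while NPPA, NR2F1, NR2F2 and KCNA5 overlapped between the groups. The part of any of these in the sterol result was not tested. Without the intermediate library of every group 6 sterol enzymes were higher, and 3 fatty acid enzymes were higher and 2 lower. Over all genes that gave 2782 higher and 2382 lower, beside 4715 and 4434 with all libraries.

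INSIG1 changed most, from 34.8, 31.1 and 29.5 CPM in the controls to 81.4, 111 and 88.4 with the ATRNL1 lentivirus. The groups did not overlap, and the log2 fold change was 1.56 (SE 0.09, edgeR adjusted p 5.4e-13). DHCR7 stood at 8.45, 9.53 and 9.54 CPM with the control and 21.8, 26 and 28.7 with ATRNL1, a log2 fold change of 1.47 (SE 0.09, adjusted p 2.9e-12). MVD rose from 2.36, 2.39 and 2.57 to 5.93, 5.20 and 7.58 CPM, a log2 fold change of 1.35 (SE 0.12, adjusted p 2.0e-09). In each of these genes every ATRNL1 library lay above every control library.

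MSMO1 stood at 71.9, 66.6 and 60.4 CPM in the control cells and 109, 144 and 108 with ATRNL1, and rose by 0.86 on the log2 scale (adjusted p 1.2e-08). HMGCS1 stood at 139, 142 and 135 with the control against 205, 260 and 224 with ATRNL1 and rose by 0.73 (adjusted p 1.6e-08). ATRNL1 library 2 was the highest of its group in both, and in INSIG1, IDI1, SQLE and the stress gene HSPA5 (686, 1005 and 836 CPM). IDI1 rose by 0.61, LSS by 0.61, NSDHL by 0.33, SQLE by 0.20 and FDFT1 by 0.17. Without ATRNL1 library 2, SQLE (0.10) and FDFT1 (0.12) were not called, and over all 14 alternatives SQLE kept its call in 10 and FDFT1 in 7. The early steps ACAT2 (-0.03), MVK (0.13), PMVK (0.09) and FDPS (-0.09) did not pass, and neither did CYP51A1, TM7SF2, HSD17B7 or SC5D. EBP, which passed with neither siRNA, fell from 12.9, 12.3 and 10.7 to 8.88, 9.22 and 9.57 CPM, a log2 fold change of -0.38 (adjusted p 0.00079).

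In the fatty acid branch SCD stood at 483, 470 and 450 CPM with the control and 761, 967 and 862 with ATRNL1, and rose by 0.88 on the log2 scale (SE 0.11, edgeR adjusted p 3.9e-07). FASN rose by 0.86 from a low level, 9.31, 10.2 and 10.1 CPM, to 15.7, 16.8 and 21.5. LPIN1 rose by 0.57 and ACSS2 by 0.18. ELOVL6 went the other way, from 52.2, 53.2 and 50.4 to 32.4, 40.0 and 33.9 CPM, a log2 fold change of -0.55 (adjusted p 1.1e-06). ME1, the cytosolic malic enzyme, fell from 74.5, 71.0 and 65.5 to 38.1, 44.3 and 34.2 CPM, a log2 fold change of -0.86 (adjusted p 1.3e-08). ACLY was lower at -0.20, and ACACA, FADS1 and FADS2 did not pass.

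Both SREBP genes rose, SREBF1 from 8.45, 8.41 and 8.26 to 14.5, 14.0 and 18.5 CPM at a log2 fold change of 0.89 (adjusted p 6.8e-09), and SREBF2 from 95.1, 99.1 and 93.9 to 141, 171 and 168 CPM at 0.73 (adjusted p 1.3e-08). STARD4 did not pass at -0.10. This comparison and the siRNA comparisons share no libraries. Of the 23 members lower with siRNA-1, 13 (56.5%) were higher with the ATRNL1 lentivirus and 2 (8.7%) lower, beside 36.5% and 19.5% of the 927 genes lower with siRNA-1 in all. Of the 17 lower with siRNA-2, 10 (58.8%) were higher and 1, ELOVL6, lower, beside 28.3% and 26.5% of 2092 genes. Of the 16 members higher with the ATRNL1 lentivirus, 13 (81.2%) were lower with siRNA-1 and 10 (62.5%) with siRNA-2, beside 7.17% and 12.6% of the 4715 genes higher in all. Among all 32 members, 23 were lower with siRNA-1, 17 with siRNA-2 and 16 higher with the ATRNL1 lentivirus. An overlap not far from the one seen would follow from those counts alone, and a link gene by gene was not tested. Both siRNA comparisons use the same scramble libraries, so the pairs of shares are not independent.

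**Figure D4:**
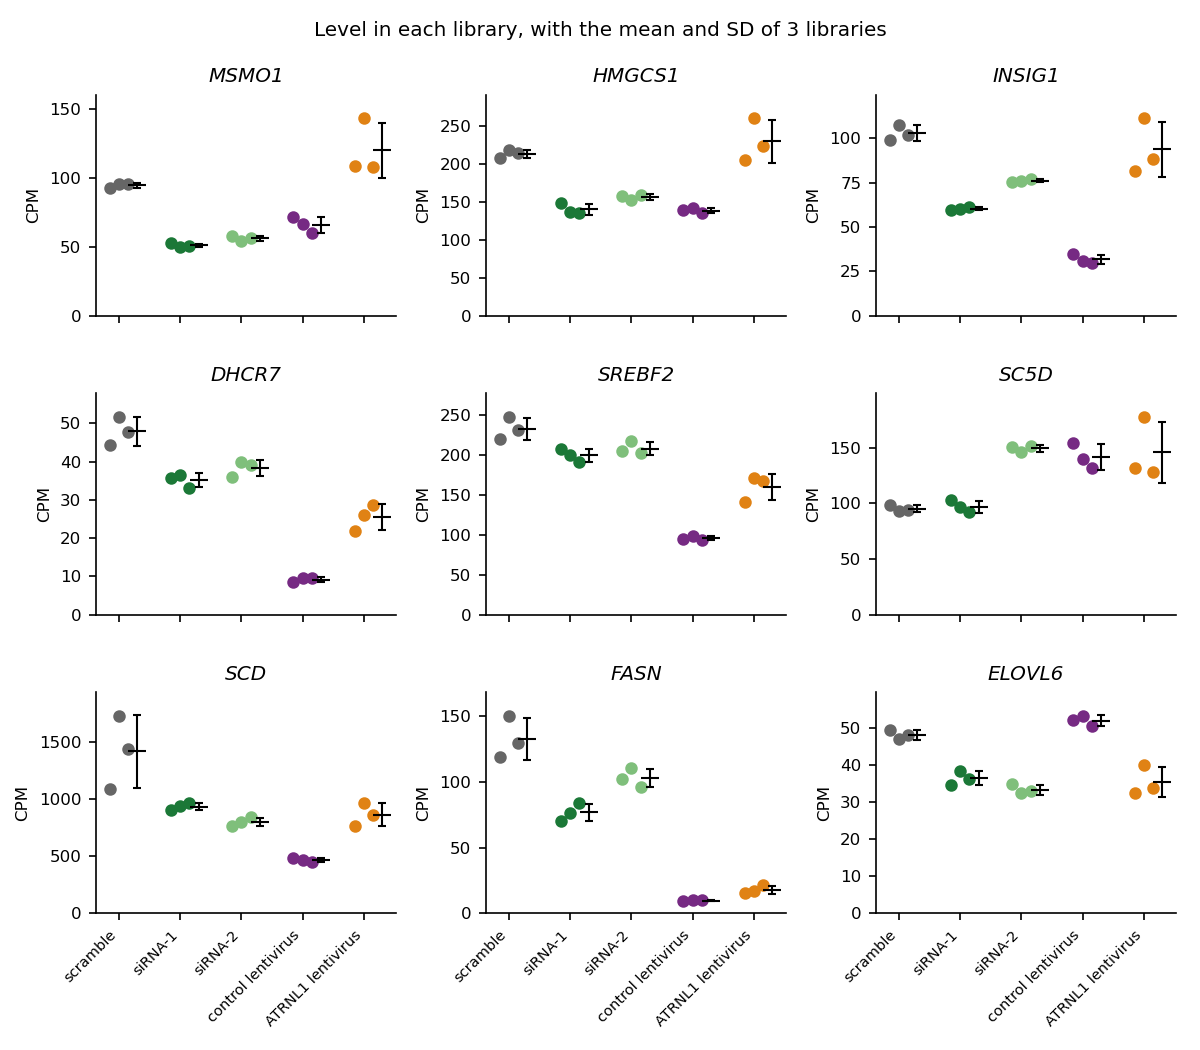
CPM in each library (points) with the mean and SD of 3 libraries (bars) for 9 members in the 5 groups. MSMO1, HMGCS1 and INSIG1 are lower with both siRNAs than with scramble and higher with the ATRNL1 lentivirus than with its control, and ELOVL6 is lower in both settings.

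The control groups themselves differed. With the control lentivirus 14 of 18 sterol enzymes, 7 of 10 fatty acid enzymes and 3 of 4 regulation and transport genes were lower than with scramble, and 2, 1 and 1 were higher. Over all genes 33.2% were called lower and 30.3% higher, 8195 and 7480 genes, and at library sizes without TMM factors 10045 and 5790. Virus, puromycin, siRNA and any batch cannot be told apart in this comparison. The stress genes were lower too, 18 of 20, and 3 smooth muscle markers summed to 541 to 559 CPM against 236 to 330 with scramble, and their part was not tested. FASN stood at 119, 150 and 129 CPM with scramble, far above the 9.31, 10.2 and 10.1 of the control lentivirus, a log2 fold change of -3.75. MVD at -3.08, SREBF1 at -2.94 and DHCR7 at -2.39 followed, and ME1 was higher at 1.63, STARD4 at 0.84, SC5D at 0.58 and ACAT2 at 0.28. INSIG1, at 98.9, 108 and 102 CPM with scramble, overlapped the 81.4, 111 and 88.4 with the ATRNL1 lentivirus, whereas FASN, MVD and SREBF1 with the ATRNL1 lentivirus stayed below every scramble library.

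GC content moved with these differences. Across 14896 genes, which share the libraries and are not independent, Spearman's rho between transcript GC content and log2 fold change was -0.66 for the control lentivirus against scramble and 0.33 for the ATRNL1 lentivirus against its control, beside -0.08 and 0.09 for siRNA-1 and siRNA-2. FASN (65.3% GC), TM7SF2 (64.2%), MVD (63.7%) and SREBF1 (62.8%) are the members richest in GC, and STARD4 is poorest at 34.2%. After a correction for GC content, FASN stood at -2.06 for the control lentivirus against scramble and MVD at -1.59, both still called. SREBF1 stood at -1.54, DHCR7 at -1.51 and ME1 at 1.11, and STARD4 at 0.14, far below its 0.84 before the correction. The sterol enzymes called lower went from 14 to 10, and MVK (0.04), PMVK (0.00), TM7SF2 (0.18) and EBP (0.07) were no longer called, while FDPS was called higher at 0.29 and IDI1 lower at -0.58. SC5D, higher before the correction, stood at 0.02. GC-poor members moved down, HMGCS1 from -0.62 to -1.11 and MSMO1 from -0.52 to -1.09.

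For the ATRNL1 lentivirus against its control the corrected values were 1.58 for INSIG1, 1.24 for DHCR7, 0.99 for MVD, 0.96 for MSMO1, 0.81 for HMGCS1 and 0.89 for SCD, all called. FASN stood at 0.46, SREBF1 at 0.55 and LSS at 0.39, each over 1.5 times smaller than before, and ACSS2 at 0.05 was no longer called. In all, 11 sterol enzymes were then higher, with HSD17B7 and CYP51A1 added, and 3 lower, with TM7SF2 at -0.45 and FDPS at -0.25 beside EBP. In the fatty acid branch 3 were higher and 4 lower. Over all genes 4428 were higher and 4967 lower after the correction, beside 4715 and 4434 before it. With either siRNA the corrected medians of the sterol enzymes were -0.41 and -0.28.

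**Figure D5:**
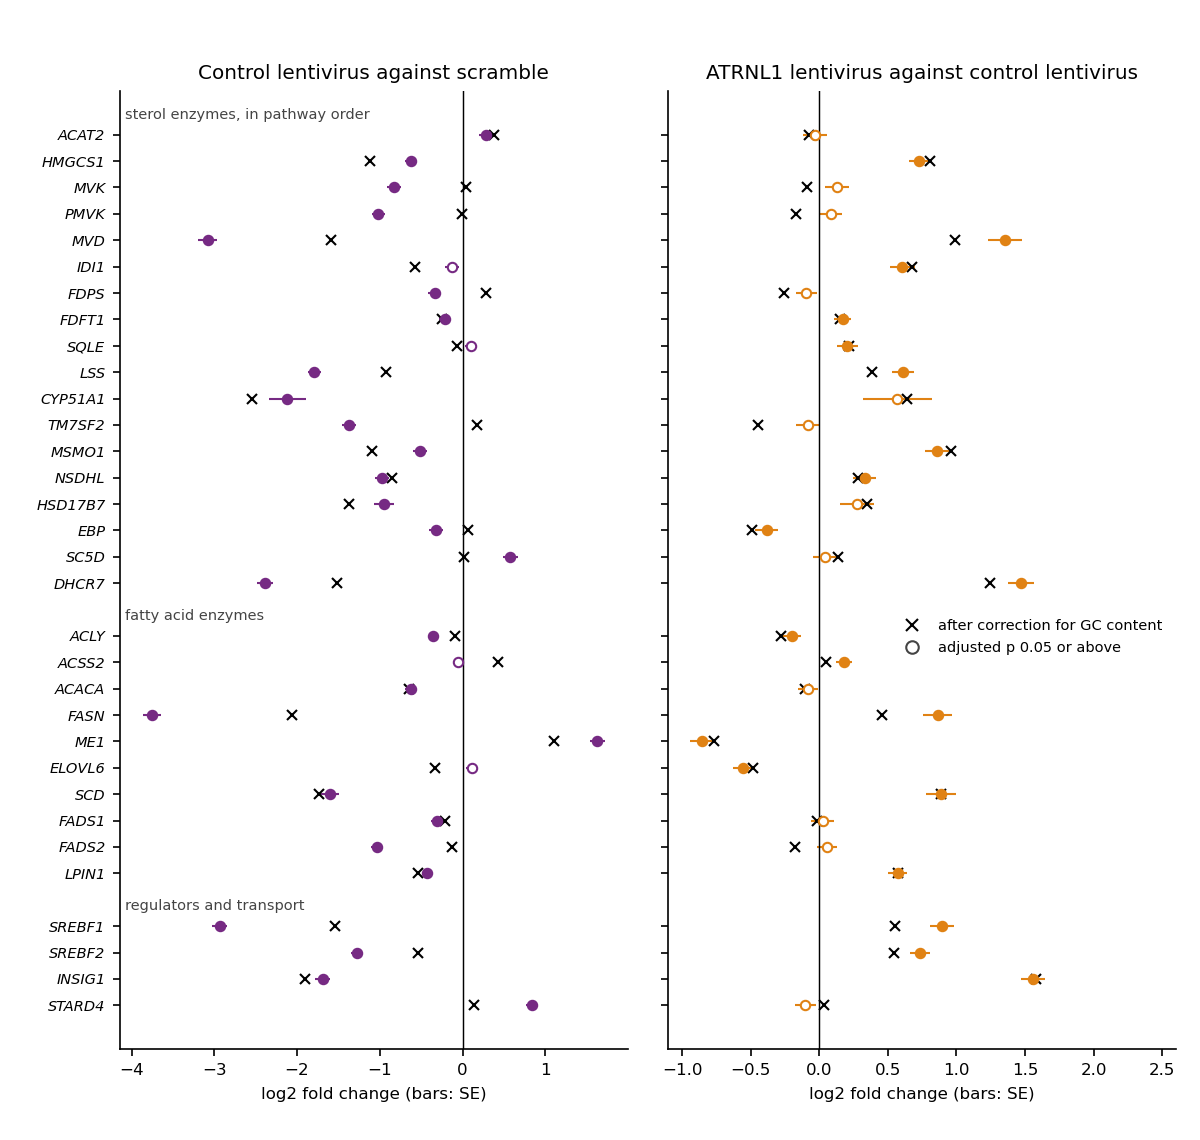
log2 fold change with its SE for each member, for the control lentivirus against scramble (left) and the ATRNL1 lentivirus against the control lentivirus (right), with crosses after correction for GC content. On the left MVD, FASN, SREBF1, LSS and TM7SF2 move toward 0, and on the right INSIG1, MSMO1 and SCD barely move.

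Other genes of the pathway stood in a list of 35, of which 34 were tested: 5 were lower and 2 higher with siRNA-1, and 8 lower and 5 higher with siRNA-2, beside the 3.76% lower and 5.85% higher, and 8.48% and 9.64%, given above for all genes. With siRNA-1 the count of higher genes, 2 of 34, was near that background. MBTPS1, the protease that makes the first cut in SREBP, was higher with both, from 51.6 ± 2.62 CPM (SD, n = 3) with scramble to 77.7 ± 1.72 with siRNA-1 and 83.2 ± 4.52 with siRNA-2. SLC25A1, the carrier that brings citrate to the cytosol, was lower with both, from 23.6 ± 1.17 to 18.9 ± 0.290 and 16.3 ± 1.03. SCARB1, a lipoprotein receptor, was lower with siRNA-1 at -0.34, and GPAM, the first acyltransferase of glycerolipid synthesis, with siRNA-2 at -0.45. COQ2, an enzyme of ubiquinone synthesis, was higher with siRNA-1 at 0.42, and LIPA, the lysosomal acid lipase, with siRNA-2 at 0.49. Between the siRNAs LBR, the other sterol C14 reductase, was lower with siRNA-1 at -0.30, and GGPS1 and COQ2 were higher at 0.38 each.

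With the ATRNL1 lentivirus 16 of the 34 were higher and 7 lower, beside 19.1% and 18% of all genes, so that the count of lower genes was near the background. SCARB1 rose from 15.9 ± 0.789 to 57.4 ± 6.62 CPM, a log2 fold change of 1.85 (SE 0.09). PNPLA3, a lipid droplet acyl hydrolase, was called higher at levels of 0.0694 ± 0.0627 and 0.278 ± 0.165 CPM. COQ2 was lower at -0.75 and ELOVL5, an elongase of polyunsaturated fatty acids, at -0.61. For the control lentivirus against scramble 20 were lower and 12 higher, beside 33.2% and 30.3% of all genes. DGAT1, the last enzyme of triglyceride synthesis, was lowest at -2.49 with AGPAT2 at -2.29, and COQ2 and MBTPS1 were higher at 1.39 and 1.21. The values of these other pathway genes were not corrected for GC content, which moved with this last comparison at a rho of -0.66. The part of GC content in them was not tested.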

How the data were processed

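The authors deposited a single table of counts: whole numbers of reads for each gene, not normalized, with GENCODE 29 identifiers in 58780 of 59429 rows. The 649 rows without one were left out and held at most 0.00437% of a library. The submitters' processing notes name STAR 2.7.9a, DESeq2 1.30.1 and GRCh 38 without saying what each did. The counting program, its use of strand and read filters were not given in the sources used here. Columns name a group but not a sample, so libraries are numbered by column order. Since no label speaks of separate cultures, the p-values measure only how far these samples spread, and that spread may be technical.

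One quasi-likelihood model of 5 group means over 15 libraries was fitted in edgeR 4.0.16 (R 4.3.3) with TMM factors and filterByExpr, and checked on simulated data. A gene was called where its Benjamini-Hochberg value, adjusted over 24659 genes, was below 0.05, and every adjusted p given is from this fit or the named alternative. SE is the size of the log2 fold change divided by the square root of F. The GC correction used a lowess curve per library (span 0.3, genes above 1 CPM). Alternatives were DESeq2 1.42.0, limma-voom 3.58.1, other scalings and filters, and left-out libraries. Members, lists and tests were chosen with earlier results of these data known. All 32 members are named, and of 35 other pathway genes up to 2 called genes with the largest rise and 2 with the largest fall in each comparison. MLXIPL, one of the 35, did not pass the filter. Promoter sequences are from RefSeq (GRCh38.p14); the 30 bases after the start were found in a GENCODE transcript of the gene for 33 of 40 windows.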

Additional observations from a re-analysis of the deposited data

Results flagged for a closer look

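The siRNAs differed from each other in 10 members, by a direct test of one against the other (edgeR, adjusted p under 0.05 over all genes). A log2 difference below 0 means a lower level with siRNA-1. SC5D differed by -0.6223 and IDI1 by -0.5158, and every siRNA-1 library lay below every siRNA-2 library in both. FASN differed by -0.4187 and MVD by -0.412. ACAT2 differed by -0.3959, SQLE by -0.3907, INSIG1 by -0.3313 and ACLY by -0.2693. In the other direction PMVK differed by 0.2536 and STARD4 by 0.2878. Of the 10, SC5D alone passed under every alternative run, and PMVK passed under 5 of 14.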

How the results depend on the processing

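No paired analysis was possible because the columns give each library's group but not which labelled sample it was. Each adjusted p or count below is at edgeR's threshold unless another tool is named, and leaving out the intermediate library and the GC correction were chosen after seeing the data.

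Leaving out the intermediate library of every group gave 133 genes lower and 300 higher with siRNA-1 (927 and 1443 with all libraries), with 6 sterol and 3 fatty acid enzymes lower. With siRNA-2 it gave 546 and 835 (2092 and 2378), with 2 sterol enzymes lower. Between the siRNAs it gave 193 and 266 (1117 and 1382), with 1 sterol and 0 fatty acid enzymes lower, and with the ATRNL1 lentivirus 2382 and 2782 (4434 and 4715). Set against scramble library 1 alone, siRNA-1 gave 238 lower, 330 higher, 6 sterol and 4 fatty acid enzymes lower, and siRNA-2 gave 967, 836, 3 and 2. With scramble library 3 alone, siRNA-1 gave 339 lower and 733 higher, and siRNA-2 gave 1004, 1282, 4 sterol and 3 fatty acid enzymes lower. Between the siRNAs, fitting those groups only gave 2247 lower, 2667 higher, 8 sterol and 5 fatty acid enzymes lower, and library sizes without TMM factors gave 2055 lower, 8 and 5.

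Leaving out 1 library at a time gave 504 to 1039 genes lower and 917 to 1945 higher with siRNA-1, and 597 to 773 lower and 809 to 1066 higher between the siRNAs, with 1 to 2 fatty acid enzymes lower there (1 without siRNA-1 library 2 or siRNA-2 library 2).

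Among members called before or after it, the GC correction turned the direction of FADS2 for the ATRNL1 lentivirus (-0.18), and of MVK (0.0365), FDPS (0.29), TM7SF2 (0.18), EBP (0.0673), ACSS2 (0.43) and ELOVL6 (-0.33) for the control lentivirus against scramble. Uncalled members whose sign turned were 4 and 1 in these comparisons, and 1 with each siRNA. Called members that kept their call under every alternative were 5 of 13 sterol and 3 of 7 fatty acid enzymes with siRNA-1, 3 of 10 and 2 of 5 with siRNA-2, and 7 of 10 and 5 of 7 with the ATRNL1 lentivirus. For the control lentivirus against scramble they were 8 of 16 and 5 of 8. With 3 libraries a group, or 1 where a single scramble library was used, small changes such as those of PMVK or LSS could not be settled.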
